A study of Mus musculus with 9 samples.

Results

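miR-192, miR-194 and miR-215 are microRNAs (miRNAs) of absorptive epithelia, in the kidney chiefly of the proximal tubule. Members were the counted mature names mmu-miR-192-5p, mmu-miR-192-3p, mmu-miR-194-5p, mmu-miR-194-2-3p and mmu-miR-215-5p, which are 5 of the 1607 known mouse miRNA names with reads in the series. All 5 passed the filter on low counts, as did 955 names in all. The names are given below without the species prefix mmu-.

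The data are small RNA reads from whole mouse kidneys at embryonic day 16.5, in 3 groups of 3 libraries. Control kidneys were wild type. Transgene kidneys carried DROSHA-E1147K, a form of the enzyme mutated in an RNase III domain, and knockout kidneys are labelled DROSHA knockout. DROSHA is the nuclear enzyme that cuts hairpin precursors out of primary miRNA transcripts, and the series concerns its loss or mutation in kidney development and Wilms tumor. Mouse strain, the promoter or Cre driver, the cells that carried each change and any pooling of animals are not given in the labels. The labels also leave unstated whether the replicates are different animals. A p-value here thus rests on the spread among libraries, part of which may be technical.

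Each miRNA hairpin gives a 5p and a 3p strand, of which one is usually loaded into Argonaute and kept while its partner is degraded. The loaded strand pairs with target mRNAs mainly through its seed, the bases near its 5′ end. The genes lie as a pair of tandem loci, each with a miR-194 hairpin beside either miR-192 or miR-215. The transcription factor HNF1 alpha is known to drive both loci, and the miRNAs are abundant in the adult kidney cortex, liver and intestine. miR-192-5p and miR-215-5p are known to be induced by p53, and miR-192-5p to repress Zeb2 in mesangial cells.

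The mature sequences are shown first because they tell which members share a seed and which loci reads can be assigned to. They were taken from RefSeq (GRCm38.p6, the mm10 build), where all 5 members were matched, and are written 5′ to 3′ with the seed (bases 2 to 8) in capitals.
miR-192-5p: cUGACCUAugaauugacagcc
miR-215-5p: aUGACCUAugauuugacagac
miR-194-5p: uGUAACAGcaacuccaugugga
miR-192-3p: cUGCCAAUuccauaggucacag
miR-194-2-3p: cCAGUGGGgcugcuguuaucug
miR-194-1-3p: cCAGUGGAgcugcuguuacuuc
The last sequence belongs to no member and is printed to show how the miR-194 loci can be told apart. miR-192-5p and miR-215-5p share the seed UGACCUA, which no other of the 1679 mouse mature names in the RefSeq table had, and were identical at 18 of 21 bases. Counted from the 5′ end with the miR-192-5p base first, they differed by C1A, A12U and C20A. miR-194-5p has the same mature sequence at both of its loci, so its reads carry no locus. The 3p strands of these loci differ by G8A, U19C, C20U and G22C, with the miR-194-2-3p base first.

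The hairpins are shown with the 5p and 3p mature strands in capitals. Mir194-2 lies at chr19:6264643-6264728 and Mir192 at chr19:6264844-6264932, both on the + strand and 115 bp apart. Neither overlaps an annotated gene in GENCODE vM21, and the nearest protein-coding gene is Atg2a, at 2308 and 2509 bp. Mir194-1 lies at chr1:185313319-185313385 and Mir215 at chr1:185313581-185313692, both on the + strand and 195 bp apart. They fall in an intron and an exon, respectively, of the non-coding gene 2010103J01Rik, and in introns of Iars2, which is on the opposite strand.
Mir192: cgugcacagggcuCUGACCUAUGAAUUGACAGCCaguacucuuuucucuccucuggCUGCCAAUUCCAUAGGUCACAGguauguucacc
Mir194-2: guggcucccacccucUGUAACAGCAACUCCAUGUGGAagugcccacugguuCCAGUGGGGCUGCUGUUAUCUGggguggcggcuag
Mir194-1: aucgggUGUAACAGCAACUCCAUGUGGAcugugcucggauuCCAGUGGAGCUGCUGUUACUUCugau
Mir215: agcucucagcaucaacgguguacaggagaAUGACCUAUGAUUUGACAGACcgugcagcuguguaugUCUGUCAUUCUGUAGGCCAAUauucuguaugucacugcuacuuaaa
Of the 5 members, 3 therefore come from the chromosome 19 locus alone (both miR-192 strands and miR-194-2-3p), miR-215-5p comes from the chromosome 1 locus alone, and miR-194-5p comes from both.

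Each library held 24350500 to 34896599 reads counted to known miRNAs. Levels are given in counts per 1000000 known miRNA reads (CPM) after TMM scaling, which corrects for differences in library composition. They are relative, so a change shared by all miRNAs would not show in them. Mature known miRNAs made up 80.9% to 81.9% of counted reads in controls, 76.9% to 79.1% in transgene and 74.7% to 77.0% in knockout libraries. The cause of that difference was not tested. Log2 fold changes, their standard errors (SE) and p-values come from edgeR's quasi-likelihood test over the 955 names, adjusted by Benjamini-Hochberg, with 0.05 as the threshold. Small RNA libraries hold no Drosha mRNA values, and the genotypes were therefore not checked. In whole kidneys, fewer cells of a type and less RNA per cell cannot be told apart. Summed levels of the 5 ureteric and tubule epithelium markers of the miR-200 family were 35403 to 40205 CPM in controls, 22192 to 34060 CPM in transgene and 12884 to 30391 CPM in knockout libraries. Epithelial miRNAs were thus present in every library, and with TMM scaling their sum was below all controls in both altered groups. As unscaled shares of miRNA reads the sums overlapped. Most of the sum was miR-429-3p and miR-200a-3p. miR-200c-3p had log2 fold changes of 0.068 in the transgene and 0.20 in the knockout, while the others were negative. With TMM scaling, 4 of 5 members lay below all controls in the knockout, against 15.6% of tested names. In the transgene 1 of 5 did, against 12.0%. As unscaled shares the counts were 3 of 5 in the knockout, against 8.27%, and 1 of 5 in the transgene, against 4.19%. The part of epithelial cell content in the members' values was not tested. The whole marker list for liver, gut and pancreas was also present and is given beside the members further on.

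miR-192-5p was the most abundant member in all 9 libraries and made up 64.8% to 95.9% of the members' reads. It ranked 50 to 80 among all names in controls, 59 to 93 in transgene and 103 to 125 in knockout libraries. The members together took 0.195% to 0.405% of miRNA reads in controls, 0.108% to 0.293% in transgene and 0.115% to 0.118% in knockout libraries. In every library the order of the strands was the same at the top, with miR-192-5p above miR-194-5p and both above the other 3 members. The mature strands are all 21 or 22 bases long, so no length correction enters these comparisons. Other differences in how well each sequence enters a library were not corrected, so levels of different strands are in reads only.

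**Figure D1:**
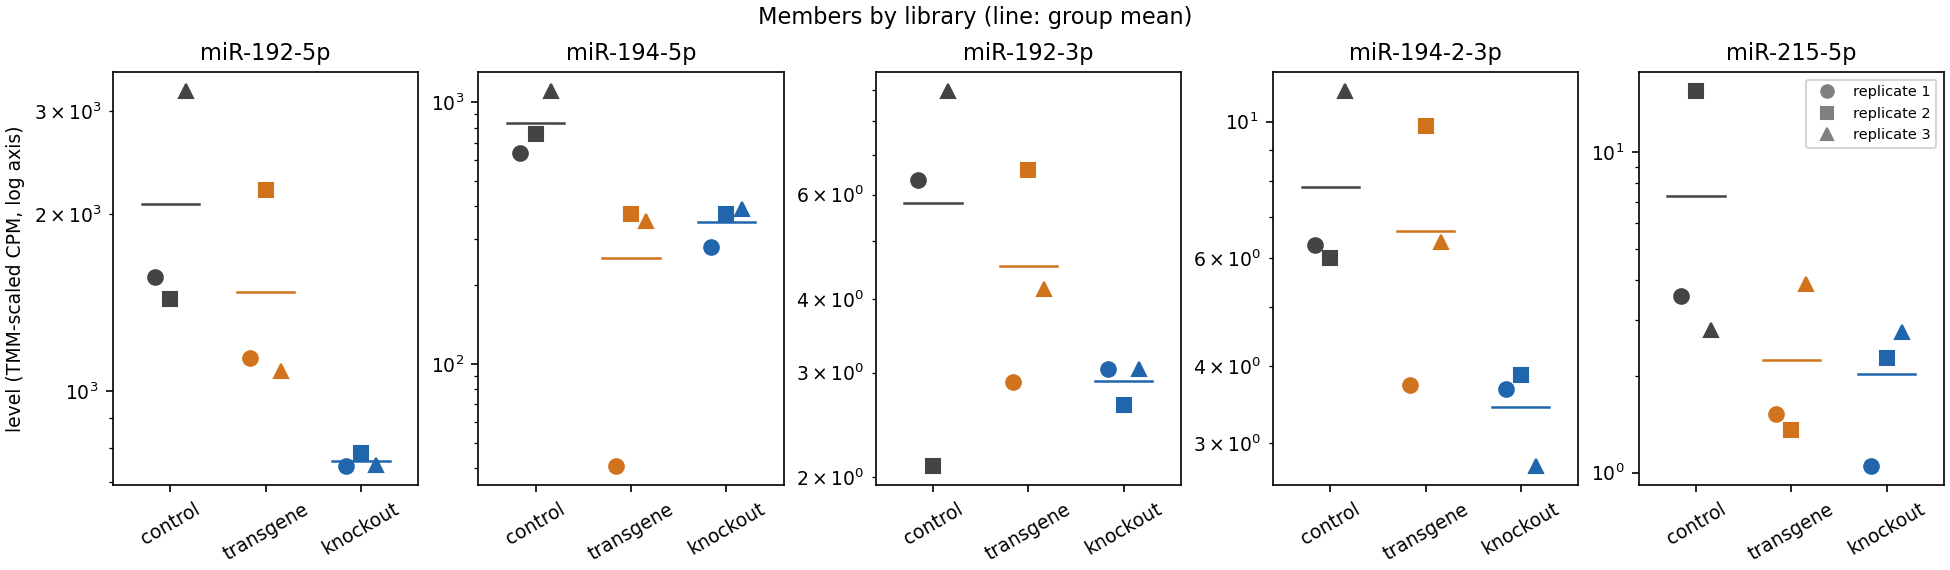
Level of each member in each library, in TMM-scaled CPM on log axes, with 1 point per library and a line at the group mean. The knockout libraries sit below all controls for 4 of the 5 members, against 15.6% of tested names. As unscaled shares miR-215-5p overlaps, which leaves 3 of 5, against 8.27% of names. Transgene 1 stands far below the other libraries for miR-194-5p alone.

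Knockout kidneys were compared with controls to ask which miRNAs of the tubule differ when DROSHA is lost. All 5 members had lower mean levels in the knockout, by 1.99-fold to 3.6-fold in the fit, and 51.1% of all tested names had negative log2 fold changes. None passed the threshold with edgeR, where 0 of 955 names did (0.0%). At an unadjusted p below 0.05 stood 3 of 5 members (miR-192-5p, miR-194-2-3p and miR-215-5p) and 245 names in all (25.7%). With DESeq2, 1 member passed, miR-192-5p, beside 104 of the 884 names given an adjusted p (11.8%). In 4 of 5 members all knockout libraries lay below all controls, against 15.6% of tested names that were lower without overlap. The members are not independent, since 3 of the 5 come from the chromosome 19 locus alone and all share the same libraries.

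miR-192-5p, the dominant strand of its hairpin, stood at 1562, 1433 and 3241 CPM in controls 1, 2 and 3. It was at 744, 783 and 749 CPM in knockouts 1, 2 and 3. The 3 knockout values were close together and below every control, while control 3 stood well above its group mates. The means were 2079 ± 1009 and 758 ± 21.1 CPM (SD, n = 3 each). The log2 fold change was -1.45 (SE 0.39, edgeR adjusted p = 0.108), and DESeq2's adjusted p was 0.0193. Without control 3 the log2 fold change was -0.99 (edgeR adjusted p = 0.229).

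Its partner strand miR-192-3p was rare, with 50 to 244 reads in a control and 65 to 90 in a knockout library. The levels were 6.35, 2.08 and 8.98 CPM in controls and 3.04, 2.65 and 3.04 CPM in knockouts. Control 2 lay below every knockout library, so the groups overlapped. The log2 fold change of -1.0 (SE 0.51) did not pass (edgeR adjusted p = 0.27).

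miR-194-5p, the 5p strand of both miR-194 hairpins, was at 639, 754 and 1106 CPM in controls and 280, 373 and 391 CPM in knockouts. The highest knockout was below the lowest control. The means were 833 ± 243 and 348 ± 59.4 CPM (SD, n = 3 each), and the log2 fold change of -1.26 (SE 0.66) did not pass (edgeR adjusted p = 0.278).

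miR-194-2-3p, the partner strand made only on chromosome 19, was at 6.31, 6.0 and 11.2 CPM in controls and 3.68, 3.87 and 2.75 CPM in knockouts. These groups did not overlap either. The log2 fold change was -1.19 (SE 0.42, edgeR adjusted p = 0.147).

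miR-215-5p, the seed partner of miR-192-5p from chromosome 1, was at 3.55, 15.5 and 2.80 CPM in controls and 1.05, 2.28 and 2.75 CPM in knockouts. Control 2 alone held the high value, and knockout 3 came within a few hundredths of a CPM of control 3. The order of that pair depended on scaling: as unscaled shares of miRNA reads the groups overlapped, and 3 of 5 members then lay lower without overlap, against 8.27% of names. The log2 fold change was -1.85 (SE 0.75, edgeR adjusted p = 0.178), and without control 2 it was -0.68.

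In transgene kidneys the mutant enzyme was compared with the same 3 control libraries, so the values of both comparisons share their controls. All 5 members had negative log2 fold changes, as did 53.3% of all tested names. None passed edgeR's threshold, where 0 of 955 names did (0.0%). At an unadjusted p below 0.05 stood miR-194-5p and miR-215-5p among 84 names in all (8.8%). With DESeq2 no member was among the 4 names called of 662 (0.604%). Of the members only miR-194-5p was lower without overlap, against 12.0% of tested names, and this held as unscaled shares, against 4.19%.

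miR-194-5p was at 40.6, 375 and 351 CPM in transgenes 1, 2 and 3, all below the lowest control at 639 CPM. The mean was 255 ± 186 CPM (SD, n = 3). The log2 fold change was -1.71 (SE 0.67, edgeR adjusted p = 0.529). Transgene 1, with 1120 reads against 8296 or more in every other library, was 6.90-fold below the next lowest library, knockout 1. Without it the log2 fold change was -1.26 (edgeR adjusted p = 0.502).

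The low value of transgene 1 was not seen in the other strand of the chromosome 19 hairpin. miR-194-2-3p was at 3.73, 9.85 and 6.36 CPM in transgenes 1, 2 and 3, and transgene 1 was close to knockout 1 at 3.68 CPM. Reads that the deposited files assign to the Rfam family mir-194, a separate set of rows, numbered 52 in transgene 1 and 464 to 1496 in the other 8 libraries. The low value was thus present in both sets of rows. Of 400 miRNAs with a mean of at least 20 CPM, transgene 1 held 2 that were at least 4-fold below every other library, miR-194-5p and miR-15b-5p. Each other library held 0 to 2 such names. These limits were set after the data were seen.

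miR-192-5p was at 1138, 2202 and 1081 CPM in the transgene libraries. Transgene 2 lay above controls 1 and 2, and the groups overlapped. The mean was 1474 ± 632 CPM (SD, n = 3) and the log2 fold change -0.50 (SE 0.38, edgeR adjusted p = 0.642). Without control 3 it was -0.058.

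The partner strands overlapped with controls as well. miR-192-3p was at 2.90, 6.59 and 4.16 CPM in transgene libraries, with a log2 fold change of -0.35 (SE 0.51, edgeR adjusted p = 0.855). For miR-194-2-3p it was -0.24 (SE 0.41, edgeR adjusted p = 0.882). Without control 3 the direction turned for both, to 0.070 and 0.075. miR-215-5p was at 1.52, 1.36 and 3.89 CPM in transgenes 1, 2 and 3. Only transgene 3 reached the range of the controls. Its log2 fold change was -1.69 (SE 0.74, edgeR adjusted p = 0.53), or -0.53 without control 2.

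**Figure D2:**
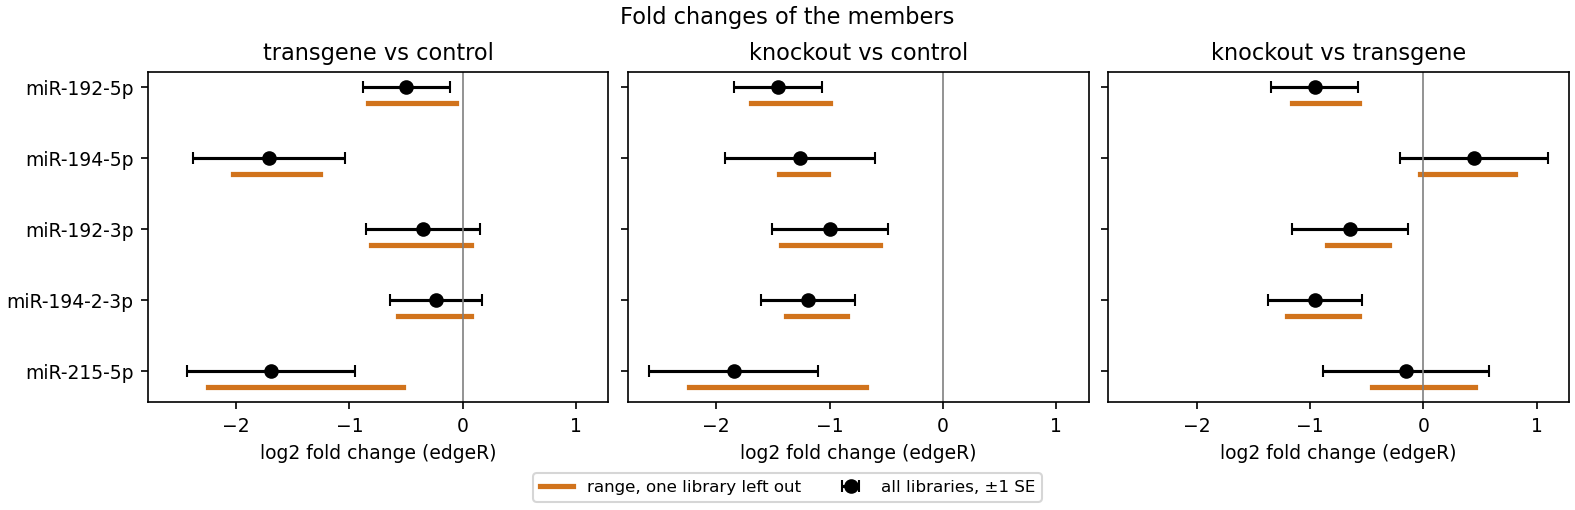
Log2 fold change of each member in the 3 comparisons, as black points with bars of 1 SE from the edgeR fit over all 9 libraries, and orange lines for the range when 1 library is left out. No member passes edgeR's adjusted threshold. With all 9 libraries, all values against controls are negative. miR-194-5p alone is positive for knockout against transgene, a sign that turns without transgene 1. The orange lines also span both signs for miR-192-3p and miR-194-2-3p in transgene against control. The same holds for miR-215-5p in knockout against transgene.

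Knockout and transgene kidneys were then set against each other. The edgeR fit called 1 of 955 names (0.105%), which was no member, and DESeq2 called 3 (0.319%), none of them a member. At an unadjusted p below 0.05 stood miR-192-5p and miR-194-2-3p among 67 names in all (7.02%). Of the members 4 had negative log2 fold changes, as did 46.9% of names. miR-192-5p was lower in the knockout without overlap, at a highest value of 783 CPM against a lowest of 1081 CPM, as were 5.97% of tested names (5.86% as unscaled shares). Its log2 fold change was -0.96 (SE 0.38, edgeR adjusted p = 0.652). Without transgene 2 it was -0.57, and without the 3 libraries highest in the liver miRNA miR-122-5p, described further on, -0.54. That of miR-194-2-3p was -0.95 (SE 0.41, edgeR adjusted p = 0.652), with knockout 2 above transgene 1. miR-194-5p was the exception in sign at 0.45 (SE 0.65, edgeR adjusted p = 0.844), and without transgene 1 it was -0.031. Values of miR-192-3p and miR-215-5p overlapped, with log2 fold changes of -0.65 and -0.15. Without transgene 3 that of miR-215-5p was 0.46 and without knockout 1 it was 0.12.

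Ratios between members use reads of the same library and so do not depend on scaling. Groups were compared over libraries by exact two-sided permutation, whose smallest p with 3 against 3 is 0.1, so no ratio could pass the threshold. Adjustment was over 9 tests. For each 100 reads of miR-192-5p there were 40.9, 52.6 and 34.1 reads of miR-194-5p in controls, and 37.6, 47.6 and 52.2 in knockouts. Transgene libraries had 3.57, 17.0 and 32.4. The knockouts all fell within the range of controls, and each transgene library lay below all of both other groups.

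The mean log2 ratio of miR-194-5p to miR-192-5p was -1.26 ± 0.31 in controls, -3.0 ± 1.64 in transgene and -1.14 ± 0.24 in knockout libraries (SD, n = 3 each). Transgene minus control was -1.74 (exact permutation p = 0.1, adjusted p = 0.45) and knockout minus transgene was 1.86 (exact permutation p = 0.1, adjusted p = 0.45). Knockout minus control was 0.12 (exact permutation p = 0.8, adjusted p = 0.9). Without transgene 1 the first difference was -0.83 and the second 0.95.

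**Figure D3:**
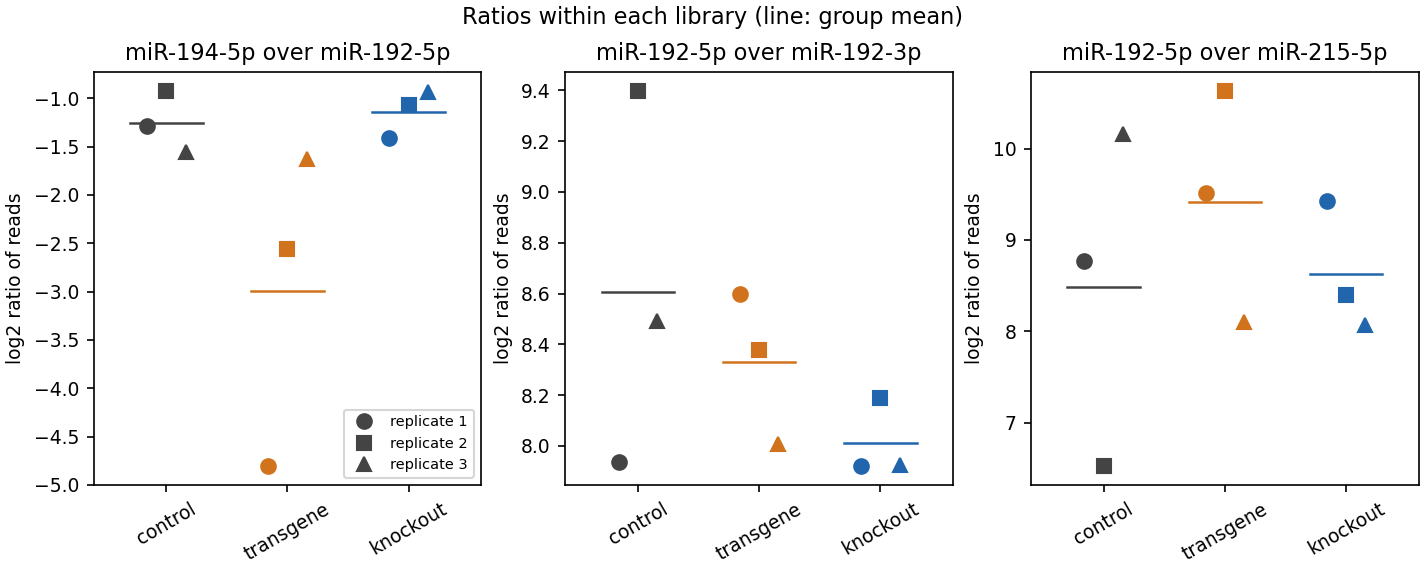
Log2 ratios between members in each library, with points for libraries and lines for group means. The ratio of miR-194-5p to miR-192-5p is lower in every transgene library than in every control or knockout library, and transgene 1 is the lowest at -4.81.

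The strand balance of the Mir192 hairpin was strongly tilted to the 5p strand in every library. The ratio of miR-192-5p to miR-192-3p was 245, 674 and 360 in controls, 388, 333 and 258 in transgene and 242, 291 and 243 in knockout libraries. The mean log2 ratios were 8.61 ± 0.74, 8.33 ± 0.30 and 8.01 ± 0.15 (SD, n = 3 each). Knockout minus control was -0.60 (exact permutation p = 0.2) and transgene minus control was -0.28 (exact permutation p = 0.7), with adjusted p of 0.45 and 0.9. The groups overlapped in both comparisons.

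The shares of the loci were told from the reads that carry one. miR-215-5p made up 1.07% (95% exact Clopper-Pearson interval 0.968% to 1.19%) of the reads of the shared seed in control 2. In the other libraries it made up 0.0615% to 0.366%, the lowest being transgene 2 (0.0447% to 0.0825%). These intervals cover counting error only, since they treat each read as a separate draw. No molecular identifiers were used here. The log2 ratio of miR-192-5p to miR-215-5p averaged 8.48 ± 1.84, 9.42 ± 1.27 and 8.63 ± 0.71 in the control, transgene and knockout groups (SD, n = 3 each). Its 3 exact permutation p-values were 0.4 to 1.0. From miR-194 3p strands, miR-194-1-3p had 0 to 4 reads in a library, against 76 to 320 of miR-194-2-3p. By either measure the strand made on chromosome 1 was the minor one in every library. The rule for reads that match more than 1 name was not given in the sources used here.

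The members are also made in liver and gut, so the miRNAs of those organs were set beside them. Liver-specific miR-122-5p was at 785, 991 and 11854 CPM in controls 1, 2 and 3. It was at 2224, 19084 and 700 CPM in transgenes and 368, 1970 and 6323 CPM in knockouts. In each group 1 library thus stood far above its mates in this miRNA. Other markers of the list ran differently. miR-375-3p and miR-802-5p, markers of endocrine pancreas and of liver and gut, were highest in transgene 3, at 9142 and 284 CPM, the transgene library lowest in miR-122-5p. miR-802-5p was lowest in knockout 3, at 0.87 CPM. All 9 listed markers of liver, gut and pancreas were counted and 7 tested, and 1 of them, miR-375-5p, was at 0 in all controls. Their summed level was 1198 to 12381 CPM in controls, 4965 to 21766 CPM in transgene and 1115 to 11262 CPM in knockout libraries.

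Control 3 and transgene 2, highest in miR-122-5p, were also the highest of their groups in miR-192-5p, miR-192-3p and miR-194-2-3p. Knockout 3, the highest knockout in miR-122-5p, was not raised in these, and had the lowest miR-194-2-3p of all libraries. miR-194-5p was the highest of its group in control 3, transgene 2 and knockout 3, at 1106, 375 and 391 CPM. The next highest libraries of those groups were at 754, 351 and 373 CPM. miR-215-5p was the lowest of its group in control 3 and transgene 2, and the highest in knockout 3. Leaving out the 3 libraries highest in miR-122-5p, a choice made after seeing the data, gave a log2 fold change for miR-192-5p of -0.88 in the knockout (edgeR adjusted p = 0.214). For miR-194-5p it was -0.99, for miR-194-2-3p -0.61, for miR-192-3p -0.49 and for miR-215-5p -2.41. In the transgene miR-194-5p was then at -1.72 and miR-192-5p at -0.34. The part of other tissue in the group differences was not tested.

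**Figure D4:**
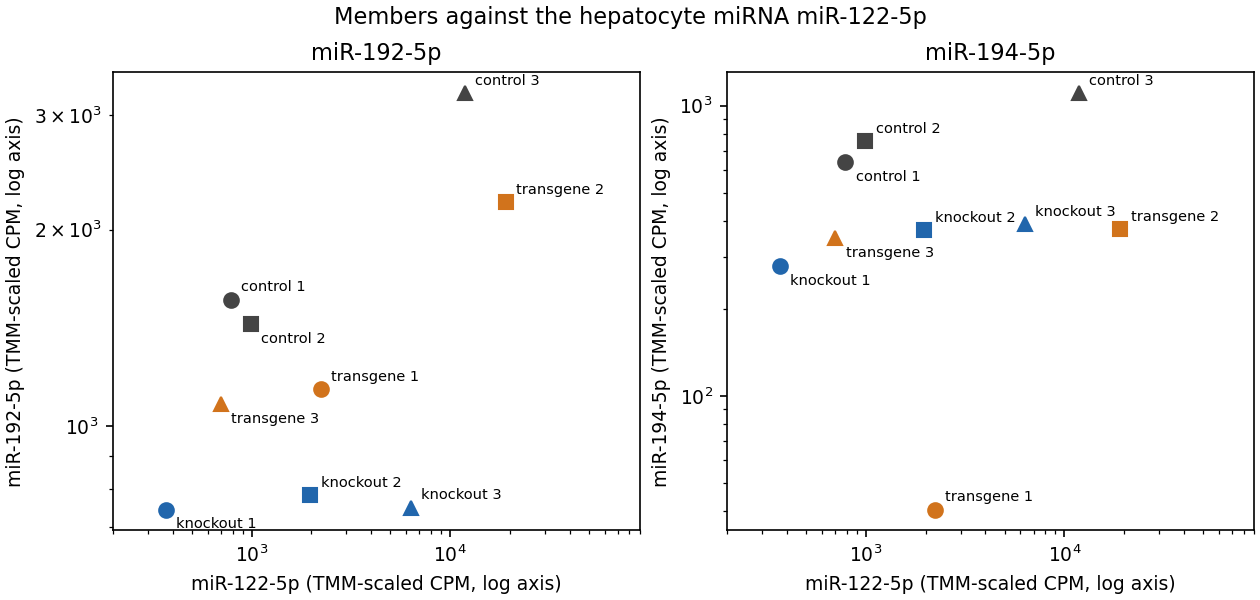
Level of miR-192-5p and miR-194-5p against miR-122-5p in each of the 9 libraries, in TMM-scaled CPM on log axes. In the panel of miR-192-5p, control 3 and transgene 2 are high on both axes, whereas knockout 3 is high only in miR-122-5p. In that of miR-194-5p, each of these libraries is the highest of its group on both axes.

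Markers of further cell types were also uneven. The 5 erythroid markers summed to 71842 to 113619 CPM in knockouts, 27376 to 80414 CPM in transgenes and 21451 to 52754 CPM in controls. Knockouts did not overlap with controls, and transgenes 1 and 2 also lay above all controls. These sums were mostly miR-451a, at 69489 to 109692 CPM in knockouts and 20940 to 51582 CPM in controls. Each of the other erythroid markers overlapped between knockouts and controls. Striated muscle markers summed to at most 1254 CPM in controls, and knockout 3 (10513 CPM), knockout 1 (2073 CPM) and transgene 1 (1641 CPM) lay above that. The 2 endothelial markers spanned 34553 to 48793 CPM in knockouts and 45278 to 56513 CPM in controls. With totals in place of TMM, the median log2 fold change of all tested names moved from -0.025 to 0.19 in the knockout and from -0.039 to 0.18 in the transgene. The members' median was then -1.06 and -0.26, against -1.26 and -0.50 with TMM. The part of these cell types in the members' values was not tested.

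Other miRNAs of tubule and nephron epithelium also had mostly negative log2 fold changes against controls. The list held 15 miRNAs of the miR-204, miR-30 and miR-200 families. In the knockout 14 of 15 had negative log2 fold changes, against 488 of 955 names. With totals 12 of 15 did, against 359 of 955 names. The median with TMM scaling was -0.69, beside -1.26 for the members and -0.025 for all names. edgeR called 0 of 15 and DESeq2 called 2, miR-204-3p and miR-30a-3p, which are named after their values were seen, while it called 11.8% of names. Below all controls lay 9 of 15, against 15.6% of names, or 5 of 15 as unscaled shares, against 8.27%. In the transgene 14 of 15 were negative, against 509 of 955 names. With totals 10 of 15 were, against 323 of 955 names. The median with TMM scaling was -0.34, and none of the list was called. Below all controls lay 4 of 15, against 12.0% of names, or 3 of 15 as unscaled shares, against 4.19%. For the most abundant of them, miR-429-3p, miR-200a-3p, miR-200c-3p and miR-200b-3p, the knockout log2 fold changes were -0.74, -0.79, 0.20 and -0.69, none of them past edgeR's threshold. With TMM scaling, miR-200c-3p alone of the whole list had a positive value in the knockout, and miR-141-3p, from the same locus, was at -0.046.

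**Figure D5:**
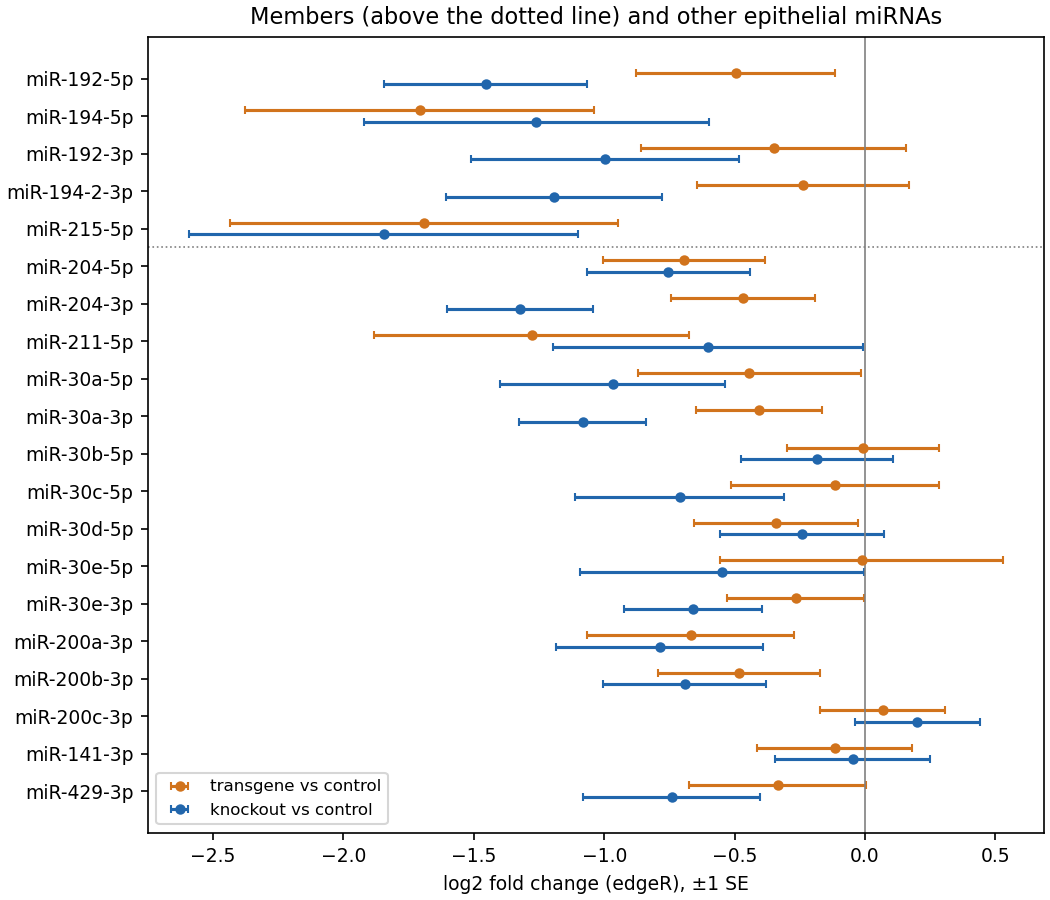
Log2 fold changes of the 5 members and the 15 other tubule and nephron epithelium miRNAs for transgene and knockout against the same controls, with bars of 1 SE from the edgeR fit. Members reach lower values than most of the list in the knockout, where the medians are -1.26 and -0.69.

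The members were compared with each other and with other miRNAs across the 9 libraries by Pearson's r of log2 CPM. The points share group, scaling and tissue makeup, so the values describe these libraries and carry no p. miR-192-5p varied most closely with miR-194-2-3p (r = 0.93) and miR-192-3p (r = 0.78), both from chromosome 19. With miR-194-5p r was 0.42, or 0.75 over the 8 libraries without transgene 1. With miR-215-5p, which shares its seed but not its locus, r was 0.16.

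Of 463 other miRNAs with a mean of at least 10 CPM, the pattern most like that of miR-192-5p was found for miR-28a-5p (r = 0.83), miR-346-5p (r = 0.82), miR-107-5p (r = 0.80), miR-135b-5p (r = 0.77) and miR-23b-3p (r = 0.75). miR-28a-5p spanned only 562 to 760 CPM, a far narrower range than that of miR-192-5p, while miR-346-5p spanned 17.3 to 80.0 CPM. The most opposed patterns were those of miR-100-3p (r = -0.89), miR-542-5p (r = -0.80) and miR-145a-3p (r = -0.77).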

How the data were processed

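Per the labels, Trizol RNA of frozen kidneys went into small RNA libraries by a BGI protocol. CASAVA 1.8, Bowtie2 and the mm10 build appear in the submitters' processing notes, without their roles. Per the file headers, the deposited values are raw read counts per small RNA name. The authors' TPM column matched the count per 1000000 reads of the library to within 0.005 in every library. It was not used in the tests. Mature and hairpin counts of 1 name were added, and the members had 0 hairpin rows. R 4.3.3 with edgeR 4.0.16 fitted all 9 libraries with TMM factors of 0.882 to 1.13, filterByExpr and a group factor of 3 levels. SE is the log2 fold change over the square root of F. DESeq2 1.42.0 was an alternative. Ratios used a pseudocount of 1. The edgeR step was also run on counts simulated with the spread estimated here, which checks the code and not the calls in these libraries. Replicate libraries differed by more than counting noise, so no library was merged with another, which does not show that they come from different animals. Libraries of the same number did not vary together (r from -0.302 to 0.102). All members were named, with the 4 most abundant of the tubule list, and the 5 names most and 3 least like miR-192-5p. Members and lists were chosen with earlier results of these data known.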

Additional observations from a re-analysis of the deposited data

How the results depend on the processing

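No member passed edgeR's threshold in any comparison under any edgeR setting, and DESeq2 called 1 member, miR-192-5p in the knockout. DESeq2 called 4, 104 and 3 miRNAs for transgene against control, knockout against control and knockout against transgene, where edgeR called 0, 0 and 1 (84, 245 and 67 at an unadjusted p below 0.05). Leaving out 1 library gave 0 to 48 calls for knockout against control, the 48 without knockout 1, and 0 to 1 for knockout against transgene. The latter gave 0 calls with only the groups compared in the fit, and 0 with the replicate numbers as a block. The replicate block changed no member's call, and its counts at an unadjusted p below 0.05 were 65, 189 and 45. Without the 3 libraries highest in miR-122-5p, knockout against control had 1 call, miR-669f-5p. The single call of knockout against transgene was miR-3067-5p with all libraries and miR-669f-5p without those 3. Both are named after their values were seen.

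For transgene against control, miR-194-2-3p turned from -0.24 to 0.018 with total counts, and leaving out 1 library gave -0.57 to 0.075 for it and -0.81 to 0.070 for miR-192-3p. For knockout against transgene, leaving out 1 library gave -0.031 to 0.81 for miR-194-5p and -0.45 to 0.46 for miR-215-5p. All log2 fold changes of knockout against control kept their sign in the 17 alternatives. The log2 ratio of miR-192-5p to miR-192-3p ranged from -0.62 to 0.12 for transgene minus control. That of miR-194-5p to miR-192-5p ranged from -0.031 to 0.28 for knockout minus control and was -0.13 without the 3 libraries. That of miR-192-5p to miR-215-5p ranged from -0.047 to 1.77 for transgene minus control and from -0.83 to 0.99 for knockout minus control, and without the 3 libraries it was 0.10 for knockout minus transgene. With 3 libraries a group and reads of miR-192-3p, miR-194-2-3p and miR-215-5p as low as 31 to 76 in a library, small differences of these strands were not detectable. The causes of these shifts were not tested.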
